A study of Mus musculus with 16 samples.

Results

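The response of Cox4-2 mutant lungs to ovalbumin challenge was described from 8 of the 16 arrays of the series, the 4 labelled as challenged mutant lungs and the 4 labelled as untreated mutant lungs. Members were chosen by these labels alone, and every gene measured on the arrays was considered. Each array held lung RNA of 1 female C57BL/6N mouse of 17 weeks, so each group was n = 4 mice. All 8 mice belonged to the Cox4-2 mutant line, a constitutive knockout per the labels, and the gene is named Cox4i2 on the array. The challenged mice were sensitised by an intraperitoneal dose of 10 µg ovalbumin with 2 mg alum and later breathed an aerosol of 1% ovalbumin 3 times for 30 min. Whether the untreated mice had been sensitised is not stated, so sensitisation and aerosol cannot be told apart here. The remaining 8 arrays, from wild-type mice of the same sex, age and strain with the same treatments, served only for the comparison of the responses.

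Ovalbumin challenge is a model of allergic asthma. In sensitised animals the inhaled protein is taken up, T helper cells and innate lymphoid cells release the type 2 cytokines interleukins 4, 5 and 13, and these draw eosinophils into the tissue, turn airway secretory cells into mucus-filled goblet cells and shift macrophages to an alternatively activated state. Cox4i2 encodes the less common of the isoforms of COX subunit IV, part of cytochrome c oxidase, the enzyme of the respiratory chain that passes electrons to oxygen, and is known for its expression in lung.

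Values are deposited intensities, a linear measure of probe brightness. An intensity above 16.8 counted as above background, and 15869 of 25697 probes passed that limit on at least 4 of the 16 arrays. A gene was represented by its brightest detected probe, which gave 11962 features, 11014 of them with a symbol. Changes are challenged minus untreated differences of log2 values after a background model, which understates changes of dim genes, and a gene was called when its limma p-value, adjusted by Benjamini-Hochberg over all 11962 features, was under 0.05. The number of arrays limits the precision. Lung markers were bright on all 8 arrays, with Sftpc, a surfactant protein, between 19829 and 32045. The challenged arrays also carried RNA of other tissues, most of all that of the challenged mouse 2. Its intensity of Acta1, the actin of skeletal muscle, was 7832, against 62.7, 118 and 73.0 on the other challenged arrays and at most 1.06 on the untreated ones. On that array Krt13, a keratin of squamous epithelium, reached 2263 against at most 75.5, and Adipoq, a fat cell hormone, 1462 against at most 219 on the other 7 mutant arrays. The level of the 12 skeletal muscle genes stood 3.82 above the untreated mean on that array and 0.26 to 0.56 above it on the other challenged arrays (log2), where untreated arrays reached at most 0.11. The level of the 16 squamous genes stood 2.28 above the untreated mean on that array and 0.17 to 0.63 above it on the other challenged arrays. Counts are also given without the challenged mouse 2, which lowers this signal and does not remove it.

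The targeted gene Cox4i2 did not respond to the challenge. Its single probe read 106, 124, 104 and 243 in the challenged mutants and 102, 77.5, 181 and 189 in the untreated mutants. The groups overlapped, and the log2 change was 0.05 ± 0.24 (SE, n = 4 against 4, adjusted p = 0.894). Untreated wild-type lungs read 247 to 372, above all untreated mutants (exact permutation test, 2-sided, p = 0.0286, the smallest that 4 against 4 arrays can give). Among challenged mice the groups overlapped, with 104 to 243 in mutants and 182 to 305 in wild type (exact permutation test, 2-sided, p = 0.0857). The signal was not lost in mutants, and the position of its probe relative to the deletion was not known, so the probe may not check the genotype.

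The challenge changed the lungs of mutants broadly and mostly by small amounts. Of the 11962 features, 2843 (23.8%) were called, 1448 higher (12.1%) and 1395 lower (11.7%). The median size of a called change was 0.48 (log2), 69.6% of called changes were under 1.5-fold, and 78 genes rose and 68 fell at least 2-fold. In 3540 features (29.6%) the values of the challenged mice all lay on 1 side of those of the untreated mice, and 2443 of these were also called. The first principal component of the 8 arrays held 50.6% of the variance and placed all challenged mice (10.3 to 28.8) apart from all untreated mice (−22.0 to −17.6), with the challenged mouse 2 at the far end. Without that mouse 2120 features were called, and leaving out each of the 8 mutant arrays in turn gave 2042 to 2708.

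**Figure D1:**
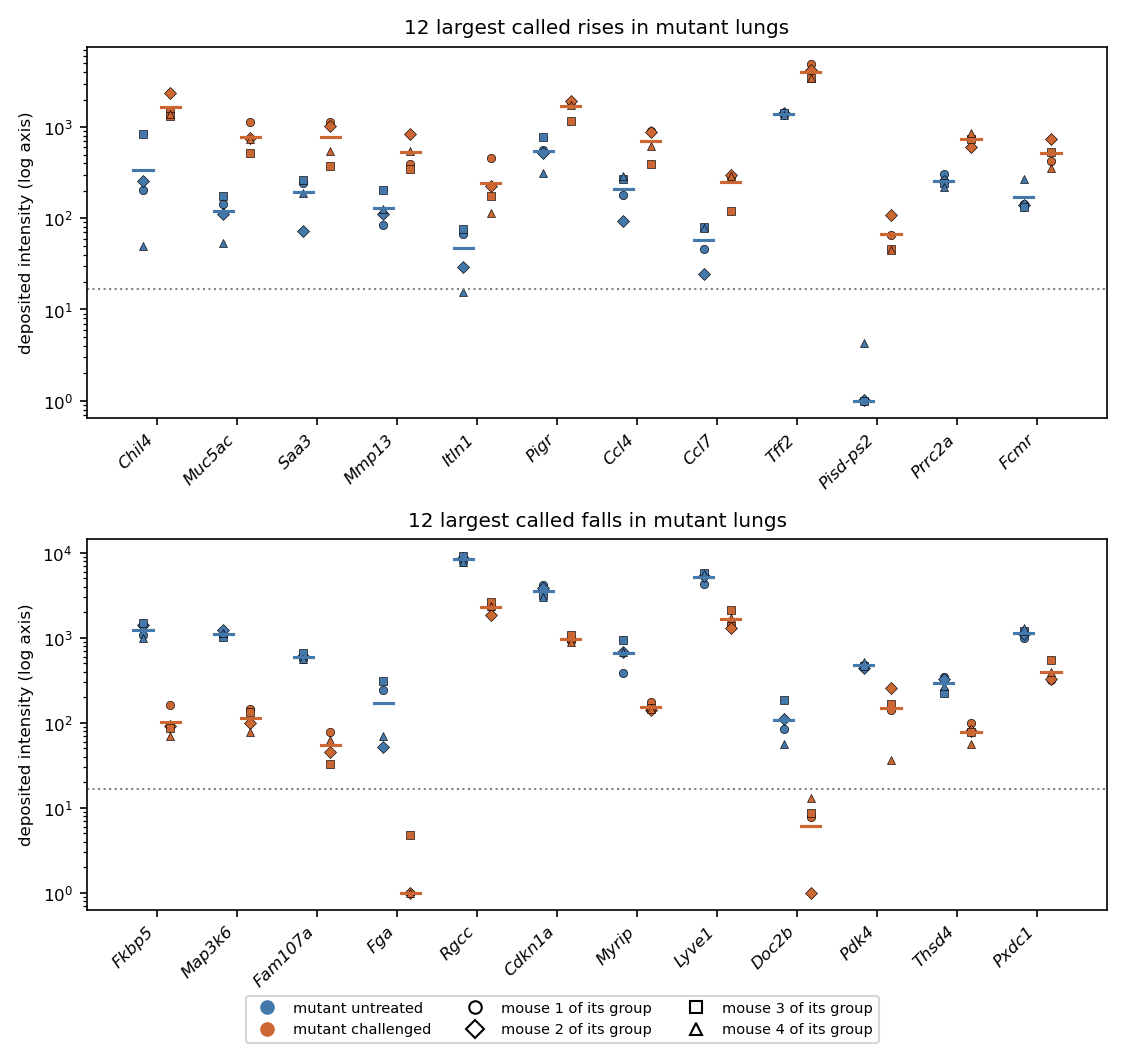
Deposited intensity (log axis) of the 12 largest called rises (top) and falls (bottom) in mutant lungs whose groups did not overlap; each point is 1 mouse, marker shapes give the mouse number within its group, bars are means of 4 mice, the dotted line is the background limit of 16.8, and values below 1 are drawn at 1. Chil4 leads the rises and Fkbp5 the falls, and the untreated mice spread most widely in Chil4, from 49.5 to 849.

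Genes of the mucous airway epithelium rose together. Of 14 tested genes of the goblet and mucous list, 11 were called higher and 0 lower, where 12.1% of all features were called higher. The median change of the list was 1.01 (log2), against 0.01 over all features. Muc5ac, the gel-forming mucin that marks goblet cells, read 1140, 759, 517 and 735 in challenged mutants and 143, 111, 177 and 54.2 in untreated mutants. Its change was 2.37 ± 0.45 (SE, adjusted p = 0.00201), the second largest rise among genes whose groups did not overlap. Tff2, a trefoil peptide secreted with mucin, read 4938, 4186, 3438 and 3449 against 1376, 1422, 1429 and 1354, so that its untreated mice lay close together. Pigr, the receptor that carries polymeric immunoglobulin across the epithelium, read 1880, 1932, 1174 and 1752 against 562, 514, 775 and 314 (change 1.60 ± 0.34, SE, adjusted p = 0.00367). Itln1, intelectin, a lectin of goblet cells, read 460, 226, 175 and 115 against 66.5, 29.5, 75.7 and 15.6. Rises were also called for Ern2, the IRE1 paralogue of mucous epithelia (1.05 ± 0.21, SE), and Foxa3, a transcription factor of goblet cells (0.97 ± 0.20, SE). The groups of all 6 of these genes were separate, and each call stood whichever of the 8 mutant arrays was left out. The list kept 8 calls without the challenged mouse 2, and 7 without the untreated mouse 2.

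The chitinase-like protein Chil4, also called Ym2, showed the largest rise among the genes whose groups did not overlap. It read 1514, 2390, 1329 and 1404 in challenged mutants and 205, 254, 849 and 49.5 in untreated mutants. The change was 2.58 ± 0.58 (SE, adjusted p = 0.00538), a 5.99-fold rise, and the untreated mouse 3 lay nearest to the challenged mice. The other 3 tested genes of the chitinase list did not pass. Chia1, acidic mammalian chitinase, read 7658, 10648, 7048 and 9257 against 9048, 4050, 5378 and 3460 (0.74 ± 0.29, SE, adjusted p = 0.0705), with the untreated mouse 1 inside the challenged range. Chil3 and Chil1 were very bright in every mouse, and their changes were −0.22 ± 0.26 and 0.03 ± 0.15 (SE). Their mean log2 levels, 14.73 and 14.75, lay near the highest of any gene, 15.55, which limits the rise that could be seen.

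Of 17 tested genes of alternatively activated macrophages, 5 were called higher and 1 lower, where 12.1% and 11.7% of all features were. The median change was 0.71. Clec10a, a galactose lectin of macrophages and dendritic cells, read 317, 362, 216 and 247 against 145, 139, 170 and 166 (0.72 ± 0.14, SE, adjusted p = 0.00197). Matk, a kinase that counteracts Src kinases, rose by 0.80 ± 0.17 (SE). Mmp12, the macrophage elastase, read 6122, 7273, 4486 and 4466 against 2565, 1672, 3014 and 1489, without overlap (1.37 ± 0.42, SE, adjusted p = 0.0265), but its call was lost in 4 of the 8 fits that left out a mutant array, with an adjusted p of 0.0719 without the challenged mouse 2. The member that fell was Socs2, a suppressor of cytokine signalling (−0.76 ± 0.11, SE, adjusted p = 0.000307). Only 2 of the 5 rises were called without the challenged mouse 2, those of Clec10a and Matk, and likewise only 2 without the untreated mouse 2.

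Type 2 cytokines and eosinophil genes gave few calls in these whole-lung samples. None of the 8 tested type 2 cytokine genes passed, and the median change was 0.08. Il33, an alarmin of the epithelium, read 2154, 2556, 1482 and 1852 against 1899, 1293, 1882 and 886 (0.46 ± 0.24, SE, adjusted p = 0.174). Il4 and Il13 were dim, between 4.58 and 23.1 on the 8 arrays. In the eosinophil list 1 of 6 tested genes was called higher, Cebpe, a transcription factor of granulocyte maturation, which was above background on 1 of the 8 arrays (adjusted p = 0.042, and 0.118 without the challenged mouse 2). Rnase2a, an eosinophil-associated ribonuclease, read 2235, 3245, 1709 and 2625 in challenged mutants and 1813, 986, 2426 and 863 in untreated mutants. Its untreated mice 1 and 3 thus lay within the challenged range, and the change of 0.76 ± 0.55 (SE, adjusted p = 0.335) did not pass. Prg2, the eosinophil major basic protein, read 152, 89.6, 138 and 99.3 untreated and 50.6, 160, 77.3 and 57.8 challenged, and Epx, eosinophil peroxidase, read at most 18.7 on the mutant arrays and was too dim to be tested. The eosinophil list as a whole was highest on the challenged mouse 2 (0.65) and the untreated mouse 3 (0.51, log2 above the untreated mean). In whole-lung RNA, more cells of a type and more RNA per cell cannot be told apart.

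**Figure D2:**
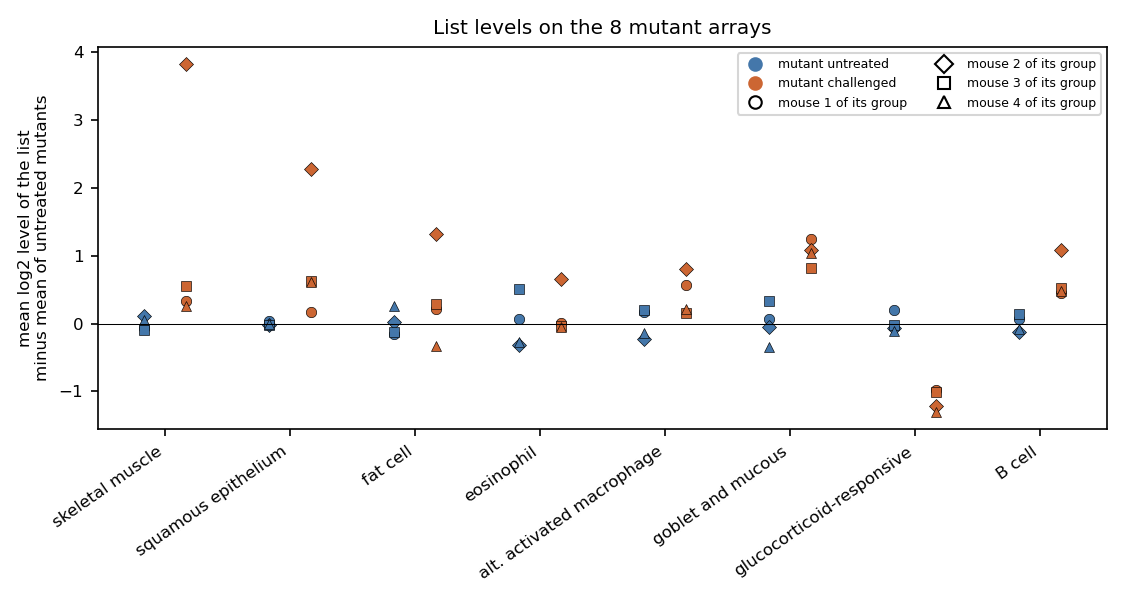
Mean log2 level of 8 gene lists on each mutant array, set against the untreated mutants' mean; each point is 1 mouse, coloured by group, with marker shapes for the mouse number. The challenged mouse 2 stands apart in skeletal muscle (3.82), squamous epithelium (2.28) and fat cell genes (1.32). The glucocorticoid-responsive, goblet, B cell, skeletal muscle and squamous lists separate the groups on all 8 arrays.

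Chemokines of the CC family were called in both directions. Of 16 tested, 5 were called higher and 2 lower, where 12.1% and 11.7% of all features were. The falls thus lay near the share of all features. The median change was 0.62. Ccl7, a chemoattractant for monocytes and eosinophils, read 286, 296, 119 and 292 against 46.4, 24.5, 80.5 and 78.3 (1.54 ± 0.31, SE, adjusted p = 0.00259). Ccl4, a chemoattractant of macrophages and T cells, read 909, 880, 394 and 623 against 182, 93.2, 269 and 292 (1.59 ± 0.41, SE, adjusted p = 0.0107). In both genes the challenged mouse 3 was the lowest of its group. Ccl21a, the chemokine of lymphatic vessels that guides dendritic cells and T cells through the receptor Ccr7, went the other way, at 396, 594, 1031 and 720 against 1960, 1749, 1384 and 2054 (−1.39 ± 0.27, SE, adjusted p = 0.00207). Ccl11, eotaxin, read 265, 301, 259 and 276 against 534, 158, 465 and 224. Its challenged mice were close together between the 2 lower and the 2 higher untreated mice, and the change was −0.15 ± 0.27 (SE, adjusted p = 0.713). Of 16 tested CXC chemokines and receptors 5 were called higher, against 12.1% of all features. Among them were Cxcr4 (0.53 ± 0.11, SE) and its ligand Cxcl12 (0.59 ± 0.16, SE). These 2 kept their calls in all 8 fits that left out a mutant array.

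A share of the lymphocyte genes rose in challenged mutants, and most T and B cell genes did not pass. Of 16 tested T cell genes 7 were called higher, of 10 B cell genes 4, and of 6 genes of NK and cytotoxic cells 4, where 12.1% of all features were called higher, with 0 lower in each list and median changes of 0.35, 0.42 and 0.56. Cd3d, a chain of the T cell receptor complex, read 387, 364, 391 and 447 against 255, 198, 160 and 224 (0.82 ± 0.16, SE, adjusted p = 0.00217). Cd8b1, the beta chain of the CD8 co-receptor, rose by 1.04 ± 0.25 (SE) and Cd27, a co-stimulatory receptor, by 0.80 ± 0.15 (SE). Blk, a Src family kinase of B cells, read 137, 206, 135 and 112 against 37.3, 29.8, 32.4 and 24.9 (1.37 ± 0.19, SE, adjusted p = 0.000307). Cd79b, a signalling chain of the B cell receptor, read 342, 742, 340 and 352 against 169, 151, 161 and 132. The challenged mouse 2 stood far above the other challenged mice in Cd79b, and that mouse also read 559 for Glycam1, a lymph node venule gene, against at most 25.6 on the other mutant arrays. The part of such tissue in the B cell values was not tested, and without that mouse Cd79b rose by 0.99 (adjusted p = 0.00314) and Blk by 1.23 (adjusted p = 0.00139). Fcmr, the Fc receptor for IgM, read 421, 742, 532 and 360 against 145, 140, 132 and 271 (1.38 ± 0.24, SE, adjusted p = 0.00121). Nkg7, a granule protein of NK cells and cytotoxic T cells, rose by 1.02 ± 0.25 (SE, adjusted p = 0.00859). Without the challenged mouse 2, 7 T cell, 3 B cell and 3 NK genes were called, and without the untreated mouse 2 only 1 NK gene was. The plasma cell list had 1 call among 10 tested genes, Sec11c, a signal peptidase subunit (0.79 ± 0.14, SE).

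Genes of granulocytes and of innate defence gave a mixed picture. Of 11 tested neutrophil genes 3 were called higher, where 12.1% of all features were. The median change was 0.56, and 1 call remained without the challenged mouse 2, as it did without the untreated mouse 2. That one was Camp, the cathelicidin antimicrobial peptide, which was not above background on any untreated mutant array and read 11.1, 31.7, 26.9 and 29.7 in challenged mutants, at least 1.13-fold higher (adjusted p = 0.000911). Saa3, an acute phase serum amyloid made in lung, read 1143, 1038, 371 and 545 against 243, 72.2, 266 and 191 (1.77 ± 0.52, SE, adjusted p = 0.0213), and lost its call without the challenged mouse 1 (adjusted p = 0.066), the challenged mouse 2 (0.061) or the untreated mouse 2 (0.0703). C1qa, a chain of the complement recognition molecule C1q, rose by 1.02 ± 0.22 (SE, adjusted p = 0.0044), 1 of 3 rises among 11 tested complement genes. It was the only one of the 3 called without the challenged mouse 2, and also without the untreated mouse 2. The opposite direction was seen for Fga, the fibrinogen alpha chain. It read −0.77, −5.46, 4.74 and −3.73 in challenged mutants and 244, 52.0, 311 and 69.7 in untreated mutants, so it was not above background on any challenged array and at least 3.11-fold lower (adjusted p = 0.00292). Hp, haptoglobin, fell by 0.48 on the log2 scale (SE 0.13, adjusted p = 0.0116). Of 12 tested acute phase genes 2 were called higher and 4 lower, where 12.1% and 11.7% of all features were. Interferon-stimulated genes (2 higher and 1 lower of 18) and MHC class II presentation genes (2 higher of 12) were called at shares near the background.

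Matrix-degrading enzymes and their inhibitors were called in both directions. Mmp13, collagenase 3, read 390, 841, 345 and 543 in challenged mutants and 84.4, 110, 203 and 125 in untreated mutants (1.70 ± 0.43, SE, adjusted p = 0.0103). Mmp14, a membrane-bound activator of other metalloproteinases, read 2361, 2474, 1820 and 2029 against 1289, 1000, 1266 and 1227 (0.84 ± 0.19, SE). Timp3, an inhibitor held in the matrix, fell from 9790, 10182, 10522 and 11498 to 6170, 6340, 6940 and 7160 (−0.66 ± 0.09, SE, adjusted p = 0.000244). Mmp3, stromelysin 1, was the other fall, at 292, 387, 779 and 174 against 633, 613, 683 and 973 (−0.92 ± 0.28, SE, adjusted p = 0.027), with the challenged mouse 3 inside the untreated range. Its call was lost in 3 of the 8 fits that left out a mutant array, with adjusted p of 0.0736 without the challenged mouse 1, 0.0891 without the challenged mouse 4 and 0.0856 without the untreated mouse 4. In total 4 of 13 tested genes of the family were called higher and 2 lower, where 12.1% and 11.7% of all features were. The falls thus lay near the share of all features. Of the rises 2, Mmp13 and Mmp14, were called without the challenged mouse 2, and likewise 2 without the untreated mouse 4. Of 17 collagen and matrix genes 1 was called higher and 3 lower, counts near the shares of all features. Among those lower were Col18a1 (−0.62 ± 0.11, SE) and Col4a1 (−0.64 ± 0.14, SE), both of the basement membrane. Promoters of Mmp13 and Mmp12 are shown as those of the family's called rises that hold the AP-1 motif TGACTCA, in capitals, as 1607 of 27025 genes (5.95%) do in RefSeq windows of the same length (build GRCm38.p6, either strand). The motif did not follow the direction of change. Mmp3, which fell, also holds it, and among genes with a window it occurs in 4.34% of those called higher, 5.3% of those called lower and 5.25% of those tested. A match is a description of the letters and not a site shown to be bound.

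Mmp13, chr9:7272264-7272563, plus strand: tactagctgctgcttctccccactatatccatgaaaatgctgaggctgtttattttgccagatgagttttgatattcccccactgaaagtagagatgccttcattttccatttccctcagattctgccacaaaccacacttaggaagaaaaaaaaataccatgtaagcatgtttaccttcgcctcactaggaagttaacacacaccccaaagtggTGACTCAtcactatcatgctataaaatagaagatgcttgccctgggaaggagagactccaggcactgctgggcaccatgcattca
Mmp12, chr9:7347124-7347423, plus strand, where the motif appears as its reverse complement TGAGTCA: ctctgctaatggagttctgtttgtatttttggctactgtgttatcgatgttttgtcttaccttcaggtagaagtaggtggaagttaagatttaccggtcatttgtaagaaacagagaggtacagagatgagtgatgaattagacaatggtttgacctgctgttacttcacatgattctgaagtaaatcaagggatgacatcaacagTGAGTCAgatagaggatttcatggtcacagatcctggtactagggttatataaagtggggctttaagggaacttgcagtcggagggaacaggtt

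Genes that glucocorticoids are known to induce through the glucocorticoid receptor fell. Of 19 tested genes of this list 11 were called lower and 0 higher, where 11.7% of all features were called lower, and the median change was −1.03. Fkbp5, a co-chaperone of the receptor, read 163, 92.2, 86.8 and 70.0 in challenged mutants and 1083, 1418, 1496 and 1002 in untreated mutants (−3.18 ± 0.25, SE, adjusted p = 2.18e-06). Map3k6, a stress-activated kinase, read 144, 98.3, 132 and 77.7 against 1074, 1247, 1011 and 1124 (−2.93 ± 0.20, SE, adjusted p = 5.3e-07). Fam107a, an actin-binding stress protein, read 77.3, 45.6, 32.5 and 62.0 against 567, 603, 660 and 555 (−2.76 ± 0.19, SE). These were the 3 largest falls among genes whose groups did not overlap, and the lowest untreated mouse was more than 6 times as bright as the highest challenged mouse in each. Cdkn1a, the cell cycle inhibitor p21, read 918, 961, 1092 and 893 against 4220, 3812, 3227 and 3008 (−1.83 ± 0.17, SE). Rgcc, a regulator of the cell cycle, fell from between 7763 and 9208 to between 1852 and 2668 (−1.85 ± 0.17, SE). All 5 kept their calls in each of the 8 fits that left out a mutant array, and the list kept 9 to 11. Pdk4, a kinase that inhibits pyruvate dehydrogenase, fell as well (−1.59 ± 0.49, SE, adjusted p = 0.0276), but 5 of the 8 such fits lost its call, with a highest adjusted p of 0.0951 without the challenged mouse 4. This list was drawn up with its fall already known, so the count is a description.

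The promoters of the 3 genes that fell most are shown, with matches to the palindromic motif of the glucocorticoid receptor, GNACA and TGTNC with 3 bases of any kind between them, on either strand, in capitals. The motif occurs in the RefSeq windows of 145 of 27025 genes (0.537%). Map3k6 and 1 of the 3 windows of Fam107a hold it, the single window of Fkbp5 does not, and 4 of the 19 tested genes of the list do, Sgk1 and Mt1 being the other 2. Among called genes with a window, 8 of 1038 that fell (0.771%) and 2 of 1083 that rose (0.185%) hold it. Of all tested genes with a window 40 of 8879 (0.451%) do. The 8 include the 4 of the list, which was drawn up with its fall already known, so these shares are a description.

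Map3k6, chr4:133240568-133240867, plus strand, GRCm38.p6: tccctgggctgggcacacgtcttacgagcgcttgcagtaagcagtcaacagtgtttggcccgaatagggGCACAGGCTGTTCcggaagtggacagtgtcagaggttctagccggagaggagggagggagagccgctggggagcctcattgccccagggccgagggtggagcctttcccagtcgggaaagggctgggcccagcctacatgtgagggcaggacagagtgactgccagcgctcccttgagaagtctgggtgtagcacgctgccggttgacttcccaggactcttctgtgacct
Fam107a, chr14:8309730-8310029, minus strand, GRCm38.p6: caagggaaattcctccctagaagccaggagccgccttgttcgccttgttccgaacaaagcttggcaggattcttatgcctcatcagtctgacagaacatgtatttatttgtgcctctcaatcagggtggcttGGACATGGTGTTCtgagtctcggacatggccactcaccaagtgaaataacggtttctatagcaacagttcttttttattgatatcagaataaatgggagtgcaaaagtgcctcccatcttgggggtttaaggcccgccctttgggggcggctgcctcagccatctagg
Fkbp5, chr17:28486100-28486399, minus strand, GRCm38.p6: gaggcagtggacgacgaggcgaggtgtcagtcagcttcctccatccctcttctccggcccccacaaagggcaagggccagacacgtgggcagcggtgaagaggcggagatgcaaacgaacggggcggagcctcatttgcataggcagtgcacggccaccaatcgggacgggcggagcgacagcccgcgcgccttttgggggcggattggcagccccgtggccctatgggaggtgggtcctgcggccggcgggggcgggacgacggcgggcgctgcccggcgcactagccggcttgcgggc

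Among the genes of the circadian clock 4 of 16 were called lower and 1 higher, where 11.7% and 12.1% of all features were. Per2, a repressor of the clock, read 408, 274, 267 and 344 against 573, 694, 704 and 531 (−0.88 ± 0.20, SE, adjusted p = 0.00523), and Rora, an activator of Bmal1 transcription, fell by 0.75 on the log2 scale (SE 0.14). The other 3 calls of this list were lost in at least 4 of the 8 fits that left out a mutant array. The hour of tissue collection is not given in the labels used here.

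Immediate early genes, which cells switch on within minutes of a stimulus, gave 5 calls upward and 2 downward of 15. Over all features 12.1% were called higher and 11.7% lower. Ier3 read 4580, 3783, 4926 and 4524 in challenged mutants and 1348, 2061, 1900 and 2294 in untreated mutants (1.23 ± 0.18, SE, adjusted p = 0.000401). Junb, a subunit of AP-1, read 1424, 1451, 1056 and 1108 against 581, 474, 655 and 547 (1.10 ± 0.20, SE). Egr1 rose by 1.02 ± 0.28 (SE), while Klf6 and Klf4, zinc finger factors of the Krüppel family, fell by 0.51 and 0.50 on the log2 scale. Cytosolic heat shock genes fell in 3 of 12 cases and rose in 1. Hspa1a, the inducible Hsp70, read 86.3, 76.2, 83.2 and 56.2 against 185, 273, 327 and 194 (−1.27 ± 0.16, SE, adjusted p = 0.000157). Dnajb1, its Hsp40 partner, fell by 0.78 (SE 0.15) and Hspb8, a small heat shock protein, by 0.95 (SE 0.15). Of 19 tested genes of protein folding in the endoplasmic reticulum 2 were called higher and 3 lower. These shares lay near those of all features. Hsp90b1 rose (0.50 ± 0.12, SE) and the stress transcription factors Atf4 (−0.80 ± 0.15, SE) and Ddit3 (−0.44 ± 0.11, SE) fell. The other calls were a rise of Hspa5 (0.38) and a fall of Calr (−0.74). They were lost in 4 and 6 of the 8 fits that left out a mutant array.

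**Figure D3:**
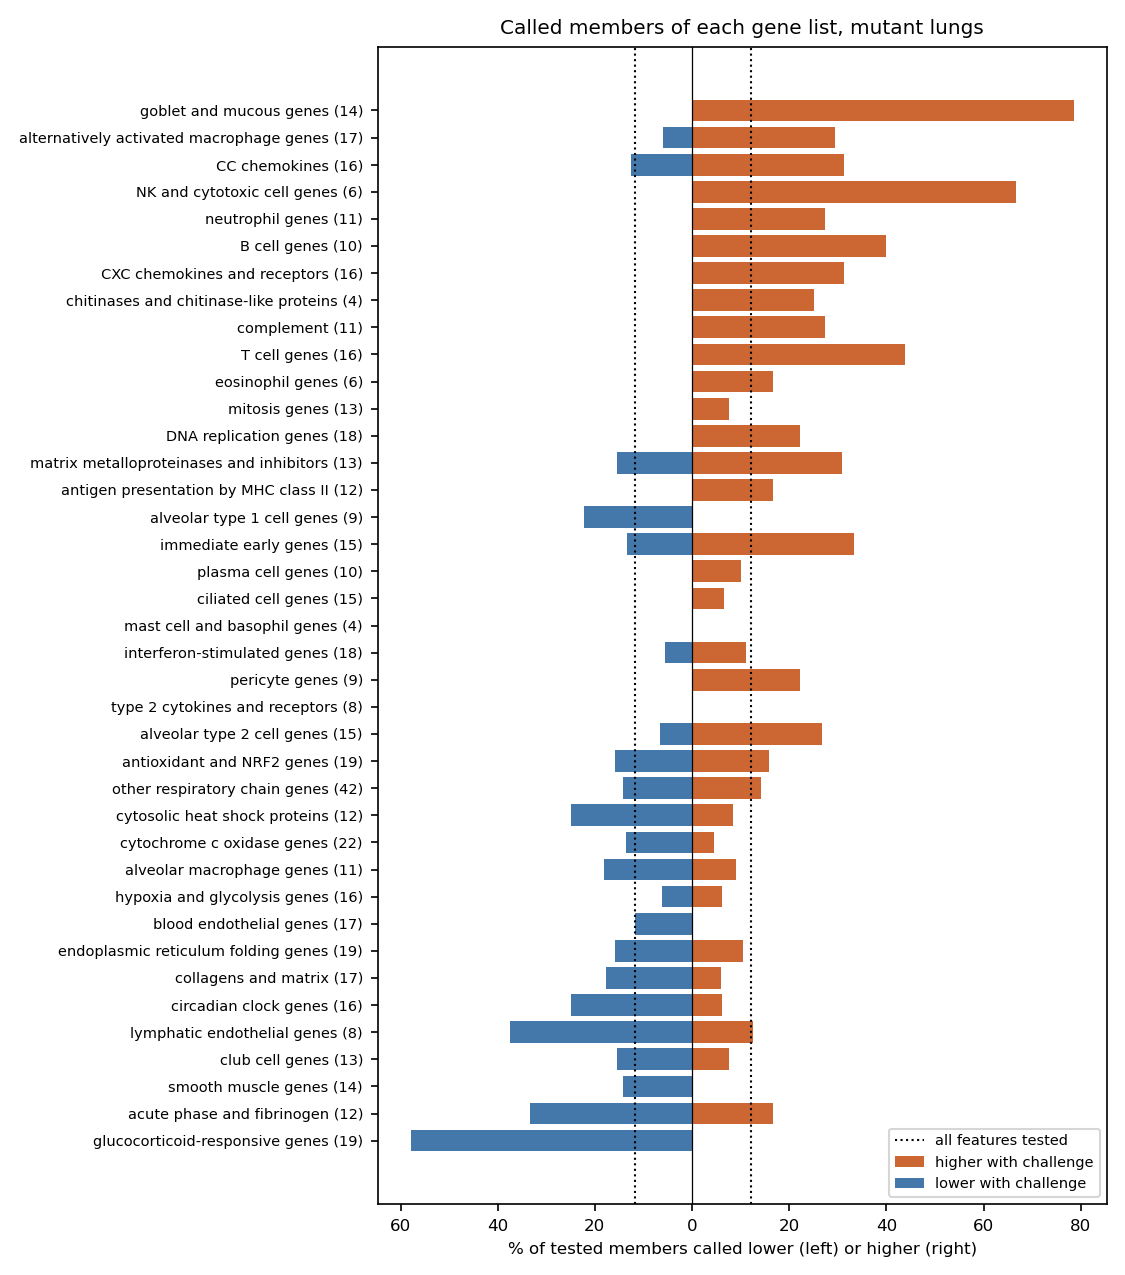
Share of tested members of each gene list called higher (right, orange) or lower (left, blue) with challenge in mutants, with the number of tested members in brackets and lists ordered by their median log2 change and the lists of other tissues and red blood cells not drawn; dotted lines are the shares over all features (12.1% higher and 11.7% lower). Goblet and mucous genes (11 of 14 higher) and glucocorticoid-responsive genes (11 of 19 lower) stand at the ends.

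Lyve1, the hyaluronan receptor of lymphatic endothelium, also made by some lung macrophages, read 1448, 1316, 2101 and 1726 against 4305, 5346, 5797 and 5569 (−1.66 ± 0.17, SE, adjusted p = 3.24e-05). Of the 8 tested lymphatic genes 3 were called lower and 1 higher, where 11.7% and 12.1% of all features were. The 17 blood endothelial genes had 2 calls, a share near the 11.7% of all features called lower, both falls being those of Eng, a co-receptor of the TGF-beta family (−0.67 ± 0.14, SE), and Cdh5, the cadherin of endothelial junctions (−0.55 ± 0.12, SE). Pdgfrb, the PDGF receptor of pericytes, went the other way, from 228, 293, 192 and 259 to 380, 333, 383 and 393 (0.55 ± 0.11, SE, adjusted p = 0.00273). Tagln, an actin-binding protein of smooth muscle, fell by 0.59 (SE 0.16). It was 1 of 2 falls among 14 tested smooth muscle genes, a share near that of all features.

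Lists of lung epithelial cell types had calls in both directions. The counts of the club cell (1 higher and 2 lower of 13) and ciliated cell lists (1 higher of 15) lay near the shares of all features, 12.1% higher and 11.7% lower. Of 15 alveolar type 2 cell genes 4 rose and 1 fell. Sftpc, surfactant protein C, read 30106, 29449, 29449 and 32045 against 21481, 24840, 19829 and 20333 (0.49 ± 0.09, SE, adjusted p = 0.00195), Lpcat1, an enzyme of surfactant lipid synthesis, rose by 0.74 ± 0.15 (SE), and Etv5, a transcription factor of these cells, by 0.62 ± 0.15 (SE). The 3 changes were called in all 8 fits that left out a mutant array. In the club cell list Scgb3a1, a secretoglobin of airway secretory cells, rose from 3319, 4286, 2773 and 4256 to 8440, 5745, 9208 and 7549 (1.07 ± 0.29, SE, adjusted p = 0.0154), while Cyp2b10, a cytochrome P450 of club cells, fell by 0.76 (SE 0.18). The main club cell secretoglobin Scgb1a1 read 40697 to 45524 on all 8 arrays, near the top of the scale. Foxj1, the master factor of motile cilia, read 132, 94.1, 96.8 and 109 against 67.4, 58.9, 75.1 and 72.6 (0.44 ± 0.10, SE), the only call of the ciliated cell list. Car4, a carbonic anhydrase, fell by 0.75 on the log2 scale (SE 0.11, adjusted p = 0.000401), 1 of 2 falls among 11 genes of the alveolar macrophage list. Car4 is also made by lung capillary endothelium.

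Respiratory chain genes, to which the mutated gene belongs, moved in both directions. Of 22 tested genes of cytochrome c oxidase and its assembly 1 was called higher and 3 lower, with a median change of −0.03. Cox4i1, the ubiquitous isoform of subunit IV, read 6554, 7374, 7120 and 6823 in challenged mutants and 5487, 5436, 5864 and 4848 in untreated mutants (0.36 ± 0.08, SE, adjusted p = 0.0058). Cox6a1, another nuclear-encoded subunit, read 3470, 3204, 3974 and 3729 against 4809, 4926, 4883 and 4816 (−0.44 ± 0.09, SE). Surf1, an assembly factor, fell by 0.51 (SE 0.13). Of 42 genes of the other complexes 6 rose and 6 fell. Ndufb10 of complex I read 438, 418, 443 and 424 against 245, 199, 244 and 186 (0.87 ± 0.11, SE, adjusted p = 0.000151), and Sdhd of complex II rose by 0.65 ± 0.12 (SE). Atp5b, the catalytic beta subunit of ATP synthase, fell by 0.51 (SE 0.12). Both groups were separate in each of these 6 genes and the calls stood in all 8 fits that left out a mutant array, yet the called shares of the lists lay near those of all features. With the skeletal muscle level as a covariate the falls numbered 6 among the cytochrome c oxidase genes and 10 among the other complexes. Both shares of falls lay above that of all features, of which 3366 of 11962 were called under that setting, 53.45% of them higher. Among 19 antioxidant genes 3 were called higher and 3 lower, near the 12.1% and 11.7% of all features, and the median change was 0.01. The list held rises of Sod2, the mitochondrial superoxide dismutase (0.54 ± 0.10, SE), and Prdx1 (0.52 ± 0.12, SE). It held falls of the extracellular Sod3 (−0.57 ± 0.13, SE) and of Nqo1. Nqo1 was above background on all untreated and on no challenged array (at least 1.19-fold lower, adjusted p = 0.0062). The hypoxia and glycolysis list had 1 call each way among 16 genes.

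Of 18 DNA replication genes 4 were called higher, above the 12.1% of all features, with a median change of 0.22, and Pold1, the catalytic subunit of DNA polymerase delta, led them at 507, 490, 508 and 468 against 291, 270, 302 and 244 (0.75 ± 0.13, SE, adjusted p = 0.00114). Of 13 mitosis genes 1 was called, Cdc20 (0.87 ± 0.30, SE, adjusted p = 0.0446), and 7 of the 8 fits that left out a mutant array lost that call. The skeletal muscle list had 0 calls among 12 genes, although its median change of 1.13 was the largest of the lists, 4 of its genes did not overlap and its level was above all untreated arrays on each challenged array. The fat list had 0 calls among 7 genes, with 1 challenged array high. The red blood cell list had 2 rises among 6 genes, both beta globins, and Hba-a1 read 30106 to 45524 on the 8 arrays. Other large changes lay outside these lists. Prrc2a, an RNA-associated protein, read 765, 598, 739 and 856 against 304, 254, 244 and 223 (1.39 ± 0.26, SE, adjusted p = 0.00161). The pseudogene Pisd-ps2 was at most 4.25 in untreated mutants and read 66.4, 109, 45.5 and 44.99 in challenged mutants, at least 1.81-fold higher. Doc2b, a calcium sensor of exocytosis, was below background on all challenged arrays and read 84.0, 110, 185 and 56.4 untreated, at least 2.47-fold lower. Myrip (−1.82 ± 0.30, SE), Thsd4 (−1.48 ± 0.16, SE) and Pxdc1 (−1.47 ± 0.17, SE) completed the 12 largest falls.

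No gene passed the test of a difference between the mutant and the wild-type response. In wild type 2108 of 11962 features (17.6%) were called, 980 higher (8.19%) and 1128 lower (9.43%). The interaction in limma called 0 of 11962 (0%), its lowest adjusted p was 0.153, and 1434 features (12%) had an unadjusted p under 0.05. That share lay above the 0.05 that would arise on average without any difference, so 0 calls does not mean equal responses. Such p-values held for 10 of 18 DNA replication, 9 of 17 collagen and matrix and 5 of 13 mitosis genes, and for 0 of 19 glucocorticoid-responsive genes. In wild type 14 replication and 12 mitosis genes were called higher, against 4 and 1 in mutants. These lists were picked after their values were seen. Of the 2843 mutant calls, 2597 (91.4%) had the same sign in wild type and 1137 (39.99%) were also called there in the same direction, which is 53.9% of the wild-type calls, and 2 were called in the opposite direction. All 146 mutant changes of at least 2-fold had the same sign in wild type. The wild-type changes of Fkbp5, Map3k6 and Fam107a were −2.74, −2.79 and −2.78, and Muc5ac rose by 2.74 there.

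The 8 genes of smallest interaction p give the direction in which the responses stood apart, without passing the threshold. Ccl11 read 585, 445, 625 and 599 in challenged and 99.0, 86.0, 153 and 189 in untreated wild type, a rise of 1.84, against a value of −0.15 in mutants (difference −1.99 ± 0.38, SE, unadjusted p = 6.45e-05, adjusted p = 0.153). The untreated mutants, at 158 to 534, thus overlapped the untreated wild type, and 3 of 4 lay above it. Hspa1a fell by 1.27 in mutants and stood at −0.10 in wild type, where untreated mice read 101 to 135 against 185 to 327 in untreated mutants. Ncapd3, a condensin subunit, and Prdx4, a peroxiredoxin of the endoplasmic reticulum, were called lower in mutants (−0.42 and −0.34) and higher in wild type (0.36 and 0.42). Uck2, a uridine-cytidine kinase, and Mad2l1, a spindle checkpoint protein, stood at −0.19 and −0.28 in mutants, not called, and rose by 0.56 and 0.51 in wild type. Depp1 stood at 0.29 in mutants and fell by 1.10 in wild type, and Tcf7l2, a Wnt pathway transcription factor, rose by 0.41 in mutants and stood at −0.28 in wild type. Chil4 rose by 4.77 in wild type (difference −2.19 ± 0.82, SE, unadjusted p = 0.0168, adjusted p = 0.324), where untreated mice read −3.99 to 74.4, below 3 of the 4 untreated mutants. When the 3 arrays with other tissue were left out, which leaves 2 challenged wild-type and 3 challenged mutant arrays, 34 features passed the interaction, 23 of them with the mutant change below the wild-type change. The 11 others included the features of lowest p, Inmt, a methyltransferase (0.04 in mutants and −1.29 in wild type), and Perm1, a muscle regulator of mitochondrial genes (0.59 and −0.73). The 23 included Ccl24, eotaxin 2 (0.89 in mutants and 4.25 in wild type), Timp1, a metalloproteinase inhibitor (0.67 and 2.23), and Mcm5, a replication helicase subunit (0.12 and 1.21), all 5 genes chosen after their values were seen. Leaving out the challenged mutant mouse 2 alone gave 0.

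**Figure D4:**
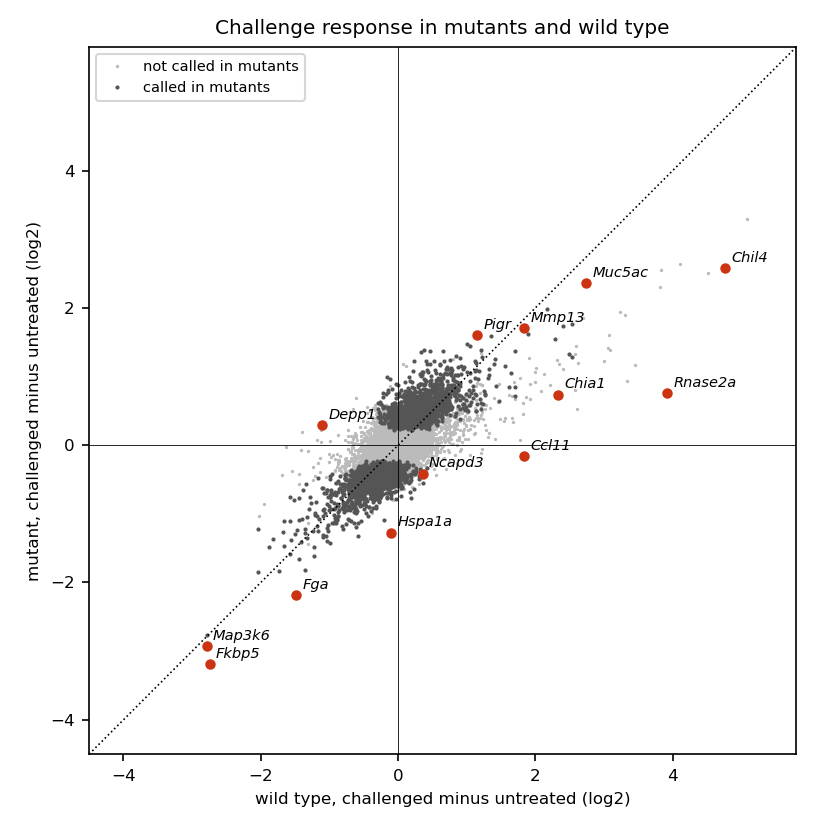
Log2 change with challenge in wild type (x axis) and in mutants (y axis) for all 11962 features, with genes called in mutants in dark grey, the diagonal of equal change dotted and 13 genes named in red. Most called genes lie in the lower left and upper right quadrants, with Ccl11, Rnase2a and Hspa1a away from the diagonal, although no difference passed the adjusted test.

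For many genes the array holds several probes, and these did not always give the same answer. Of 2837 genes with several detected probes, 315 had at least 2 called probes that all went 1 way, 895 had exactly 1 called probe and 1556 had none. In 71 genes (2.5%) at least 1 probe was called higher and at least 1 lower, when the test was run on all 15869 detected probes, of which 3809 (24%) were called. In 63 of the 71 the 2 probes most apart carried the same transcript accession, so the annotation does not assign them to different transcripts. The probe sequences were not used here.

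Actb, the cytoplasmic beta actin used widely as a reference, was 1 such gene, with 2 of 5 probes called higher and 1 lower. Its brightest probe ILMN_1377923 read 24840, 24498, 21089 and 24164 in challenged mutants and 13441, 15392, 14757 and 15562 in untreated mutants (0.68 ± 0.11, SE, adjusted p = 0.000624). Its probe ILMN_2617433 read 1729, 1858, 1896 and 1487 against 3136, 2339, 2420 and 2976 (−0.62 ± 0.15, SE, adjusted p = 0.00876). Both probes separated the groups completely and in opposite directions. The uncalled probes of Actb also stood higher with challenge, at 1.08 and 1.02 (adjusted p = 0.0755 and 0.0895). Irf1, an interferon response factor, had 5 detected probes, 1 called higher and 3 lower. The higher one read 7241, 6983, 4836 and 5680 against 4672, 4439, 4108 and 4228, and one of the lower ones read 14.9, 14.5, 5.93 and 25.7 against 48.2, 45.7, 39.4 and 46.6. Rnf167, a ubiquitin ligase, had 2 probes called higher and 3 lower, at 0.48 ± 0.10 and −0.69 ± 0.12 (SE) for the pair most apart, and it was the only gene of the 71 with both probes of the pair called the same way in wild type (0.32 and −0.50). Eif3a, a translation initiation factor subunit, was 1 of 17 genes whose brightest probe was the lower one. Its probes read 153, 169, 154 and 188 against 84.6, 88.5, 107 and 106, and 576, 582, 629 and 578 against 945, 936, 815 and 858.

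The other genes of the 15 with the largest opposite changes were Pkig (0.76 and −0.69), Slco3a1 (0.81 and −0.66), Cacfd1 (0.66 and −0.55), Map1lc3a (0.55 and −0.53), Acads (0.77 and −0.52), Ccnd3 (0.61 and −0.52), Ptp4a2 (0.52 and −0.60), Cd44 (0.64 and −0.51), Trabd (0.62 and −0.50), Flrt3 (0.64 and −0.50) and Nup88 (0.54 and −0.47). The pairs of Pkig and Cd44 carried different transcript accessions. Several pairs of the 15 held a dim probe, near the floor of the scale. The falling probe of Irf1, Acads, Cacfd1, Cd44, Trabd, Flrt3 and Nup88 had a mean log2 level between 6.05 and 6.30. The rising probe of Ccnd3 lay at 5.86. In 46 of the 71 genes the rising probe was the brighter of the pair. The part of background in these opposite changes was not tested. The brightest probe was the higher one in 36 of the 71 genes, the lower one in 17 and not called in 18. In 57 of the 71 the 2 probes also had opposite signs, in the same order, in wild type. Only 3 genes had probes called in opposite directions in wild type, and 1 of them in both genotypes. The count of 71 depends on the arrays used, falling to between 32 and 44 when any mutant array but that of the challenged mouse 3 was left out, and 11 genes had both changes at 0.5 or more.

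**Figure D5:**
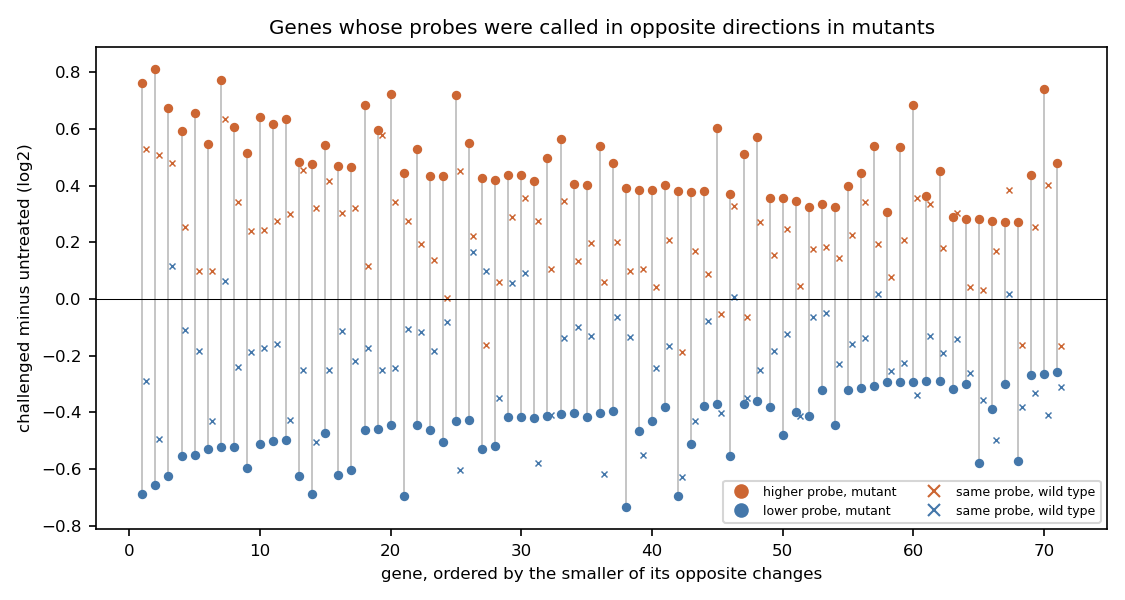
Log2 change of the most different called probes of the 71 genes with probes called in opposite directions in mutants, genes ordered by the smaller of the 2 absolute changes; circles are mutants and crosses the same probes in wild type, orange for the probe called higher and blue for the probe called lower. Most wild-type crosses lie closer to 0 on the same side as in mutants, in 57 genes for both probes.

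Where only 1 probe of a gene was called, the gap could be large. The second probe of Mmp13, ILMN_2799267, changed by 0.18 (adjusted p = 0.269 over all probes) where the probe reported above rose by 1.70, and its mean log2 level was 6.22 against 8.08, near the floor of the scale. Usp10 had probes at −1.33 and 0.04, Tspan18 at −1.33 and −0.05, Igfbp2 at −1.03 and 0.21, Klhdc4 at 0.97 and −0.20 and Cyb5r3 at −0.75 and 0.42. In Igfbp2 the uncalled probe was the brighter one. The direction of calls also went with brightness. With all detected probes ordered by brightness into 4 equal groups, the share of called probes that were higher was 36.9% in the dimmest, 44.2% and 46.9% in the next ones and 50.4% in the brightest, where wild type had 43.2%, 43.8%, 43.4% and 41.4%. With 1 probe a gene the mutant shares were 43.0%, 53.9%, 49.95% and 52.7%.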

How the data were processed

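Lung RNA of 16 mice was measured on 1-colour Illumina MouseRef-8 BeadChips, 1 array a mouse and 4 mice a group. The analysis used the intensity values deposited by the authors in the series' value table. Between 23.5% and 23.8% of each array's values lie below 0 and all arrays share 1 upper quartile (220.674), so the values are background-subtracted and quantile-normalised. The submitters' processing notes name GenomeStudio 2011.1 without its role. The unnormalised table was not used, since its 32 columns match no sample label.

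From the intensities, a normexp background model with an offset of 16 gave log2 values (limma 3.58.1, R 4.3.3). The noise SD was 10.22 and the background limit of 16.8 the 95th percentile of that noise. Probes above it on at least 4 of 16 arrays were kept, 15869 of 25697. The brightest probe stood for a gene. Gene names come from the platform's annotation, in which 23978 probes have 1 symbol, 0 several and 1719 none, and 23962 matched RefSeq. A limma fit of all 4 groups with eBayes gave the mutant response, the wild-type response and their difference, each adjusted by Benjamini-Hochberg. All 4 groups shared 1 estimate of spread. The single test on Cox4i2 was an exact permutation test. The fit was checked on simulated data. No array carries a slide or scan date, so batches could not be tested. Nothing says whether mice of a group shared a cage or litter, so p-values measure the spread between these samples.

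Named genes were the 12 largest called rises and falls without overlap, the 8 smallest interaction p-values, the markers, the called members of the lists, and the 15 genes with the largest opposite probe changes. Members and lists were chosen with earlier results of these data known, so the counts of called list members are descriptions for every list. The motifs were chosen after the values were seen.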

Additional observations from a re-analysis of the deposited data

Results flagged for a closer look

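In 13 of 306 groups of 4 arrays, 1 array stood far from the other 3, and chance alone marks about 1 in 20 groups. In the challenged mutants, Ccl7 was low on mouse 3 (119.4 against 286.5 to 296.2), as was Sod2 (2706 against 3391 to 3514). Nfil3, a repressor of the clock, was low on mouse 4 (368.6 against 499 to 528.6), and Ndufb6, a complex I subunit, on mouse 1 (1264 against 1591 to 1614).

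The challenged mouse 2, which also carried RNA of other tissues, was high in both chains of the B cell receptor complex. Cd79b read 741.9 there against 339.6 to 352.2, and Cd79a 477.9 against 237.1 to 258.4. That mouse was low in Flt4, the VEGF receptor of lymphatic endothelium (2.809 against 9.815 to 11.31), where all 4 values lie below background. Hbb-b2, a beta globin, was high on the challenged mouse 4 (159.9 against 100.6 to 108.6).

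In the untreated mutants, mouse 1 was high in Lyz2, lysozyme (34530 against 28720 to 29450), and in Thy1 (658.2 against 515 to 532.3). Cd79a was low on mouse 2 (84.52 against 127.3 to 136.3), Sprr2a1, a small proline-rich protein of squamous epithelium, on mouse 3 (166.3 against 206.9 to 214.7), and Fcmr was high on mouse 4 (271 against 131.5 to 144.9).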

How the results depend on the processing

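The count of genes called in mutants was 2042 to 3106 when each of the 16 arrays was left out in turn and 2301 to 3366 under the other settings, against 2843. Genes called under both carried the same direction in every setting run. The difference between the responses had 0 calls, 0 to 3 with 1 array left out, and 34 without the 3 arrays carrying other tissue. The count of genes with opposite probes was 71, 32 to 85 with 1 array left out, 40 with no filter on dim probes, and 11 when both changes had to reach 0.5. Of 145 called named genes 87 kept their call under all settings and 58 lost it under at least 1. Ndufb6 turned from −0.43 to 0.0607 (adjusted p = 0.748) when probes were averaged. It was 1 of the 71 genes with opposite probes, at −0.43 and, for a dim probe, 0.55. The causes of the other shifts were not tested.

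The replicate numbers did not pair the arrays. Correlations of same-numbered deviations were 0.07, −0.12, −0.09 and −3e-04, and no number correlated best with itself. With the replicate number as a block 2775 genes were called, and 138 of the 145 named calls stood. Dim genes, near the background of 16.8, limit what can be seen. Counts of list members moved too, as for CC chemokines (5 higher, and 3 to 10 with 1 mutant array left out) and neutrophil genes (3 higher, and 1 with the block).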
